A study of Rattus norvegicus with 9 samples.

Results

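The DEAD and DEAH box helicase genes of the rat were examined in blood RNA. The genes were taken by symbol, as those named Ddx or Dhx followed by a number in the annotation of the array, without Ddx58, Dhx58 and Ddx3y. Transcript clusters, which are the probe sets of the array, matched this rule 47 times; 3 of them (Ddx41 with Mir3542, and Ddx19a with Ddx19b on 2 clusters) carried more than 1 symbol and were left out. The other 44 belonged to 43 genes of the 18166 genes tested, 29 named Ddx and 14 named Dhx. Of the 2 clusters of Ddx21, the one with the higher mean over all arrays was used. Rats of the study were male Sprague-Dawley animals in 3 groups. The arrays cover 3 rats of each group, which are a part of its rats, with an Affymetrix Rat Gene 2.0 ST array for each. Control (Sham) rats underwent the surgery without a filament and no pretreatment is described for them. In the QDBS/MCAO group, rats swam daily until exhausted over 21 days. In the YDBS/MCAO group, intramuscular hydrocortisone (45 mg/kg a day) was given over 13 days, and subcutaneous epinephrine (0.36 mg/kg) on 1 further day. The middle cerebral artery of both models was thereafter occluded (MCAO) and reopened. At 24 h of reperfusion, aortic blood was collected from every group. Pretreatment and occlusion therefore cannot be told apart against control.

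DEAD and DEAH box proteins are named after amino acids of their ATP-binding motif. They use ATP to unwind short RNA duplexes or to strip proteins from RNA, and different members act in splicing, mRNA export, translation, mRNA decay and the assembly of ribosomes. Most of them are expressed in nearly every nucleated cell, while a few belong to the germ line. In blood, their transcripts can come from all leukocytes and from young erythroid cells. In such bulk samples, fewer cells of a type and less RNA per cell cannot be told apart.

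Against control, 16 of the 43 helicase genes rose in QDBS. In YDBS the number was 15, and no helicase gene fell in either model. A gene was called at a FDR under 0.05 over all 18166 genes and an absolute log2 FC over 1, by limma. Of all genes tested 9.62% were called higher in QDBS and 10.4% in YDBS, and 1.36% and 0.919% lower. The helicase genes rose in shares of 37.2% and 34.9%. At an unadjusted p under 0.05, 1 helicase gene was lower in QDBS (Ddx3), where 30.5% of all genes were, and 2 in YDBS (Ddx3 and Ddx4), where 32.7% were. Among the brightest 60% of genes, which hold 39 of the helicase genes, the share called higher was 15.7% in QDBS and 16.9% in YDBS. All 15 genes called in YDBS were also called in QDBS (8.2% of all genes were called in both), and Dhx8 was called in QDBS alone. A further 9 genes in QDBS and 7 in YDBS were higher at a FDR under 0.05 with a log2 FC between 0.45 and 1.00, and 17 genes met the FDR in neither model. Over the alternatives run, 18 to 28 helicase genes in QDBS and 18 to 24 in YDBS were higher at the FDR alone, and 0 to 3 and 0 to 5 lower. Genes higher at the FDR alone made up 20% of all genes in QDBS and 20.5% in YDBS, against 58.1% and 51.2% of the helicase genes. With 75th percentile centring, all genes were called 1254 higher and 618 lower in QDBS (1747 and 247 as deposited) and 1415 and 550 in YDBS (1892 and 167), and 13 helicase genes rose in each model. Both comparisons share the control arrays, and their overlap is no result of its own.

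**Figure D1:**
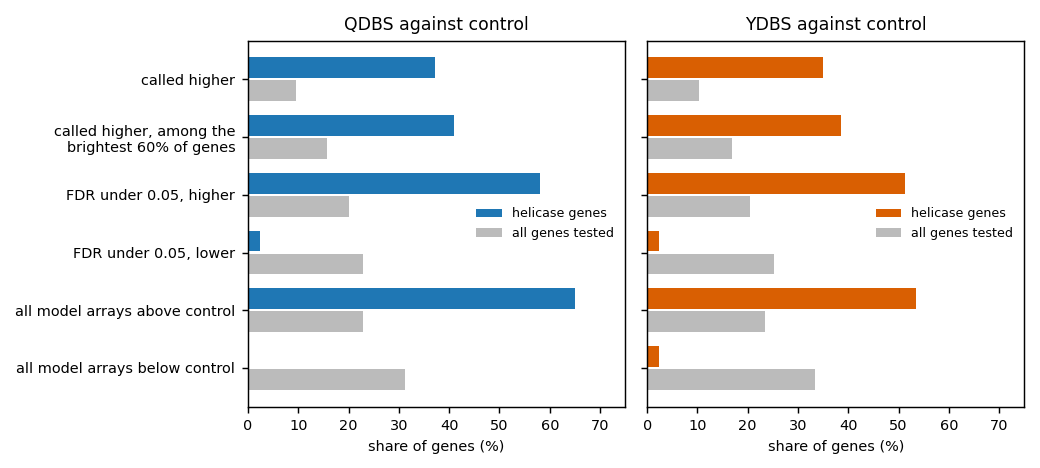
Share of genes in percent that met each criterion in QDBS (left) and YDBS (right) against control; coloured bars are the helicase genes and grey bars all genes tested. In both models the helicase bars are longer for every criterion of higher signal and shorter for both criteria of lower signal.

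The median log2 FC of the 43 genes was 0.56 in QDBS and 0.47 in YDBS. It was -0.15 and -0.16 for all genes. For the brightest 60% of genes, which hold 39 of the helicase genes, it was 0.08 and 0.07. Of the helicase genes 38 lay above 0 in QDBS and 33 in YDBS, as did 37.5% and 37.4% of all genes. Of the 10899 brightest genes 5949 lay above 0 in QDBS and 5873 in YDBS. For 28 helicase genes every QDBS array lay above every control array (22.8% of all genes) and for none below (31.3%), and for 23 every YDBS array lay above (23.4%) and for 1, Ddx3, below (33.3%). The mean signal of the 43 genes was 5.20, 4.92 and 5.20 on the control arrays, 5.86, 6.03 and 5.94 on the QDBS arrays and 5.81, 5.79 and 5.78 on the YDBS arrays, on the log2 scale. Every model array thus lay above every control array, and the QDBS arrays lay above the YDBS arrays. Control replicate 2 had the lowest control signal for 30 of the 43 genes, or 69.8%, against 40.3% of all genes. Without this array 16 helicase genes were called higher in QDBS and 14 in YDBS, and the median log2 FC was 0.48 and 0.35.

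**Figure D2:**
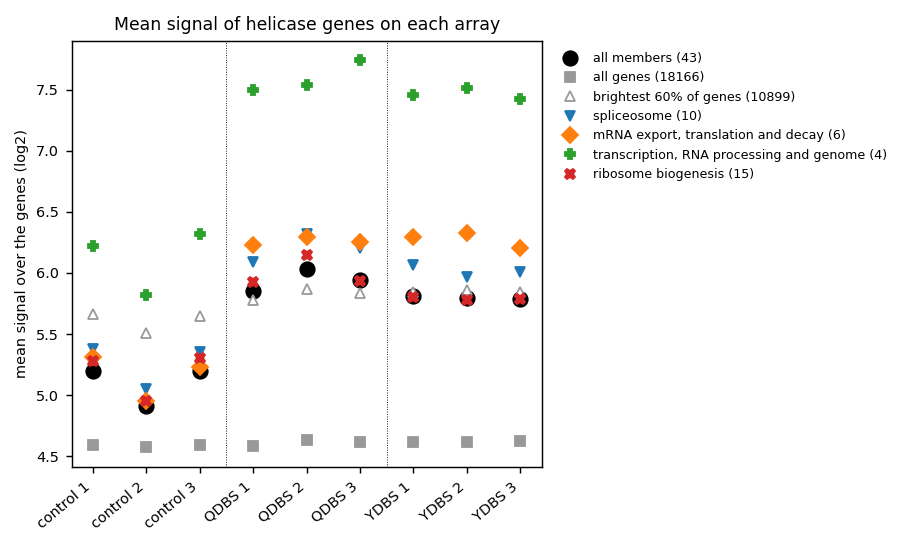
Mean signal on the log2 scale (vertical axis) on each of the 9 arrays (horizontal axis) over the 43 helicase genes, 4 of their role groups and all genes or the brightest 60% as background. Means of the helicase genes lie between 4.92 and 5.20 on control arrays and between 5.78 and 6.03 on model arrays, while the means over all genes stay between 4.57 and 4.64.

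Helicases that act on the spliceosome were higher in 4 of 10 genes in QDBS and 3 of 10 in YDBS, with medians of 0.91 and 0.67. Dhx15 releases the excised intron and takes spent spliceosomes apart. Its signals were 5.61, 4.19 and 5.25 on the control arrays, 7.34, 7.22 and 7.41 in QDBS and 7.09, 6.98 and 6.98 in YDBS. All model arrays lay above the control arrays, of which replicate 2 was the lowest by more than 1 log2 unit. The FC of Dhx15 was 4.95 in QDBS (limma FDR = 0.000119, log2 FC 2.31 with a standard error of 0.28, n = 3 per group) and its log2 FC in YDBS was 2.00 (FDR = 0.00028). Ddx46, which helps the U2 particle to settle on the branch point, had signals of 4.60, 4.78 and 4.44 in control, 6.31, 6.65 and 6.69 in QDBS and 6.33, 6.37 and 6.49 in YDBS. The models overlapped with each other and lay far above control, and Ddx46 rose 3.84-fold in QDBS and 3.46-fold in YDBS (FDR = 4.77e-06 and 6.92e-06 from limma). Ddx42, which takes part in assembly of the U2 particle, rose with a log2 FC of 1.22 and 1.05. Dhx8, which releases the spliced mRNA, lay at the threshold, with a log2 FC of 1.03 in QDBS, which was called, and 1.00 in YDBS, which was just under 1 and was not. Its QDBS call was lost with 75th percentile centring, quantile normalization and cyclic loess (log2 FC 0.81, 0.69 and 0.76) and without QDBS replicate 2 (0.92). The YDBS call of Ddx42 was lost with the same 3 scalings (0.85, 0.97 and 0.95) and without control replicate 2 (0.89), and its QDBS call with the first (1.00, just under the threshold).
The other spliceosome members were not called. Ddx20, a helicase of the SMN complex that loads the small nuclear RNAs with proteins, had log2 FCs of 0.96 (QDBS) and 0.67 (YDBS), and Ddx23, which opens the pairing of U1 with the 5' splice site, of 0.87 and 0.67. These 4 values met the FDR but not the fold. Ddx20 was called in QDBS with median centring, quantile normalization and cyclic loess (1.13, 1.13 and 1.23), and without control replicate 3 (1.14) or QDBS replicate 1. Ddx23 was called in QDBS with median centring (1.03), while its YDBS value missed the FDR with quantile normalization (0.30). Ddx39b, which acts in splicing and in mRNA export, had 0.46 and 0.21 on the same scale, and only the former met the FDR (0.0236 and 0.221 from limma), while the latter was -0.18 with quantile normalization and -0.05 with cyclic loess. The QDBS value missed the FDR under 75th percentile centring, quantile normalization and cyclic loess (0.23, 0.09 and 0.17) and without control replicate 2 (0.37). The log2 FCs of Dhx16, Dhx35 and Dhx38, which drive steps of the splicing cycle or sit in the catalytic complex, lay between -0.08 and 0.27, with no FDR under 0.05.

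**Figure D3:**
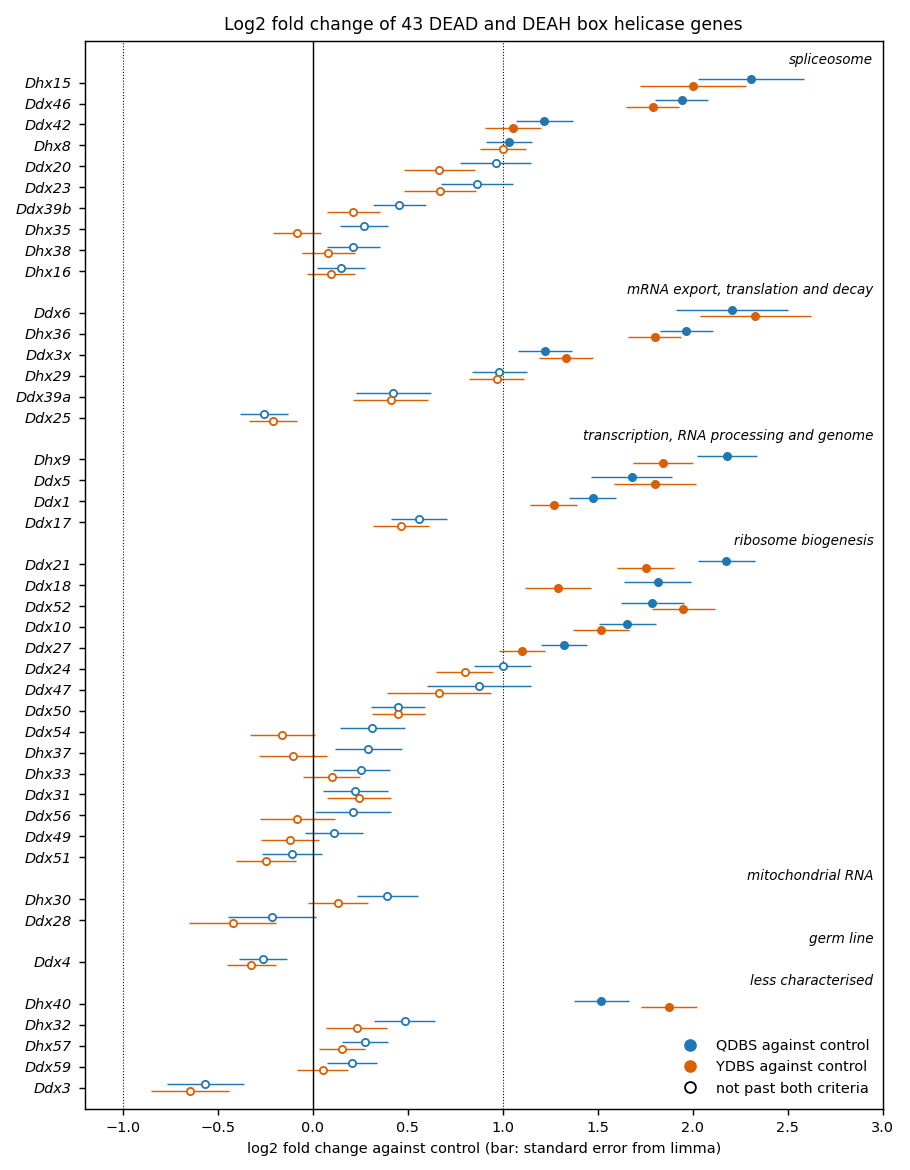
Log2 fold change against control (horizontal axis, points with standard error bars from limma) of the 43 helicase genes, sorted by role, in QDBS (blue) and YDBS (orange); filled points met both criteria and dotted lines mark a log2 FC of 1 in either direction. Filled points occur in 5 of the 7 role groups, all to the right, from 1.03 for Dhx8 to 2.33 for Ddx6.

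Of 6 helicases of mRNA export, translation and decay, 3 rose in both models, with medians of 1.10 and 1.15. Ddx6 holds mRNAs in a repressed state in P-bodies and promotes their decapping. Its signals were 7.13, 5.83 and 7.18 in control, 8.92, 8.76 and 9.09 in QDBS and 9.06, 9.08 and 8.99 in YDBS. The values of both models lay together and above all control values, of which replicate 2 was again the lowest. Its FC was 4.62 in QDBS (limma FDR = 0.000216, log2 FC 2.21 with a standard error of 0.29, n = 3 per group) and 5.03 in YDBS (FDR = 0.000138). Dhx36, which unfolds four-stranded guanine structures of DNA and RNA, had signals of 4.06, 3.58 and 3.92 in control, 5.90, 5.72 and 5.83 in QDBS and 5.73, 5.66 and 5.56 in YDBS. The groups of both models lay close to each other and well above control, with a FC of 3.90 and 3.48. Ddx3x, which helps ribosomes to start on structured mRNAs, rose with a log2 FC of 1.22 and 1.33. Under quantile normalization these were 0.87 and 0.96 and were not called, and in QDBS 75th percentile centring and cyclic loess also lost the call (1.00, just under the threshold, and 0.94). Dhx29, which binds the small ribosomal subunit during scanning, had 0.98 and 0.97, which met the FDR and missed the fold. Ddx39a, an export helicase closely related to Ddx39b, had 0.42 and 0.41 (FDR = 0.102 and 0.107). Ddx25, a helicase of the testis, had signals of 3.63, 3.83 and 3.43 in control, 3.42, 3.45 and 3.24 in QDBS and 3.40, 3.43 and 3.43 in YDBS. The control values overlapped with QDBS and touched those of YDBS, and no difference of Ddx25 met the FDR (0.119 and 0.189). Its log2 FCs of -0.26 and -0.21 were 0.04 and 0.11 with cyclic loess.

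The helicases of transcription and RNA processing rose in 3 of 4 genes in both models, with medians of 1.58 and 1.53. Dhx9, also known as RNA helicase A, links transcription factors to RNA polymerase II and unwinds double-stranded RNA. Its signals were 5.33, 5.09 and 5.77 in control, 7.51, 7.62 and 7.59 in QDBS and 7.27, 7.22 and 7.22 in YDBS. The model arrays of each group lay within a narrow range, QDBS above YDBS and both above control. The FC was 4.53 in QDBS (limma FDR = 5.02e-06, log2 FC 2.18 with a standard error of 0.16, n = 3 per group) and 3.59 in YDBS (FDR = 1.21e-05). Ddx5 is a coactivator of transcription and a cofactor of microRNA processing. Its signals were 7.92, 7.10 and 7.86 in control, 9.23, 9.10 and 9.58 in QDBS and 9.32, 9.58 and 9.38 in YDBS, so that the model values mixed with each other and not with control. Its FC was 3.20 and 3.49. Its close relative Ddx17 met the FDR with a log2 FC of 0.56 and 0.47, under the fold, and missed it with quantile normalization (0.21 and 0.09) and cyclic loess (0.27 and 0.20). In YDBS Ddx17 also missed the FDR with 75th percentile centring (0.26) and with only the groups compared.
Ddx1, which belongs to the complex that ligates spliced transfer RNAs, was also measured by qPCR in the study, which was not used here. On the arrays its signals were 4.71, 4.65 and 4.71 in control, 6.02, 6.09 and 6.40 in QDBS and 5.98, 5.95 and 5.95 in YDBS. Control values were nearly equal, and every model value was above them. The FC of Ddx1 was 2.78 in QDBS (log2 FC 1.47, standard error 0.12, FDR = 1.17e-05 from limma) and 2.41 in YDBS.

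**Figure D4:**
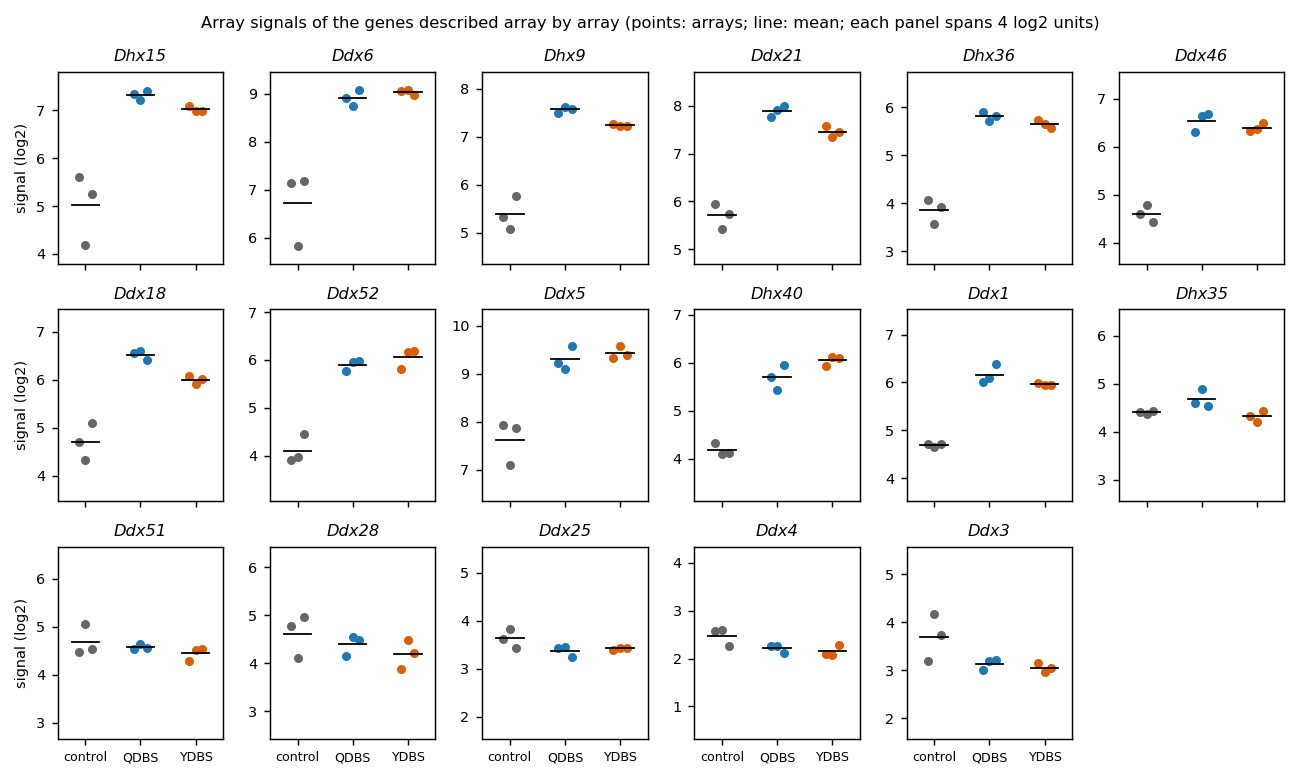
Signals on the log2 scale (vertical axis) of 17 helicase genes in the control, QDBS and YDBS groups; points are arrays, lines are means of 3 arrays and each panel spans 4 log2 units around its own centre. In the 11 panels from Dhx15 to Ddx1 all model arrays lie above all control arrays, and in the other 6 panels control overlaps with at least 1 model.

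Ribosome biogenesis was the largest group, and 5 of its 15 genes rose in both models, with medians of 0.45 in each. Ddx21, a nucleolar helicase that couples ribosomal RNA transcription to its processing, had signals of 5.96, 5.42 and 5.75 in control, 7.77, 7.90 and 7.99 in QDBS and 7.58, 7.34 and 7.45 in YDBS. The 3 groups did not overlap, with QDBS the highest. Its FC was 4.52 in QDBS (limma FDR = 3.53e-06, log2 FC 2.18 with a standard error of 0.15, n = 3 per group) and 3.37 in YDBS (FDR = 1.11e-05). The cluster used for Ddx21 was the brighter only on the model arrays. The other cluster, brighter on the control arrays, rose less (log2 difference 1.23 and 0.95). Ddx18, which acts in the assembly of the large ribosomal subunit, had signals of 4.70, 4.32 and 5.10, 6.55, 6.61 and 6.41 and 6.08, 5.91 and 6.01 in control, QDBS and YDBS. Again the groups were in the order control, YDBS and QDBS without overlap, and the rise was 3.52-fold in QDBS, 2.45-fold in YDBS. Ddx52, which is known from yeast to act in the maturation of the small subunit, had signals of 3.92, 3.97 and 4.45 in control, 5.76, 5.96 and 5.97 in QDBS and 5.82, 6.17 and 6.19 in YDBS. Here the models overlapped, and the FC was 3.45 and 3.86. Ddx10 and Ddx27, both nucleolar, rose with log2 FCs of 1.66 and 1.52 for Ddx10 and of 1.32 and 1.10 for Ddx27. The YDBS call of Ddx27 was lost with 75th percentile centring, quantile normalization and cyclic loess (0.89, 0.96 and 0.97).
The other 10 genes of ribosome biogenesis were not called. Ddx24 missed the fold by little in QDBS (log2 FC 1.00, FDR = 0.000512 from limma, and 0.80 in YDBS). It was called in both models when each array was centred on its median (1.16 and 1.00). In QDBS it was also called without control replicate 1 or 3 (1.07 and 1.09) and without QDBS replicate 1 or 3. Ddx47 had 0.87, which met the FDR, and 0.66, which did not, with the widest control spread of the group (signals of 6.62, 5.32 and 6.40). Its QDBS value was 0.48 without control replicate 2, and was called without control replicate 1 (1.13) or 3 (1.02) or with median centring (1.04). It missed the FDR with quantile normalization (0.57), cyclic loess (0.60) and only the groups compared. Ddx50, the neighbour and paralogue of Ddx21, had 0.45 and 0.45, which both met the FDR. They missed it with 75th percentile centring (0.23 and 0.25), quantile normalization (0.35 and 0.37) and without control replicate 3 (0.39 and 0.39). For Ddx31, Ddx49, Ddx51, Ddx54, Ddx56, Dhx33 and Dhx37 no FDR was under 0.05 on the deposited values. Their log2 FCs lay between -0.24 for Ddx51 in YDBS and 0.31 for Ddx54 in QDBS. In YDBS, Ddx49 and Ddx54 were lower at the FDR with quantile normalization (-0.46 and -0.54, limma FDR = 0.0203 and 0.0231) and cyclic loess (-0.33 and -0.42). With 75th percentile centring Ddx51 was lower at the FDR in YDBS (-0.45). Ddx51 had signals of 4.47, 5.05 and 4.54 in control, 4.54, 4.64 and 4.55 in QDBS and 4.28, 4.52 and 4.53 in YDBS, and control overlapped with both models.

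Mitochondrial and germ line helicases were not called. Ddx28, which acts on the mitochondrial ribosome, had signals of 4.77, 4.10 and 4.97 in control, 4.16, 4.55 and 4.49 in QDBS and 3.88, 4.49 and 4.22 in YDBS, with overlap of all groups. Its log2 FC of -0.42 in YDBS missed the FDR (0.149 from limma). The FDR was met with 75th percentile centring (-0.63) and without control replicate 2 (-0.68). Dhx30, also of mitochondrial RNA, had log2 FCs of 0.39 (QDBS) and 0.13 (YDBS). Ddx4, the Vasa protein of germ cells, was dim in all groups, with signals of 2.57, 2.59 and 2.25 in control, 2.25, 2.25 and 2.12 in QDBS and 2.10, 2.06 and 2.28 in YDBS. Its mean lay at percentile 10.2 of all genes, and control replicate 3 lay among the model values.
Among the less characterised genes, Dhx40 had signals of 4.32, 4.10 and 4.11 in control, 5.70, 5.43 and 5.95 in QDBS and 5.93, 6.13 and 6.10 in YDBS. Both models lay above control and overlapped with each other, and YDBS was the higher by its mean, with a rise of 3.67-fold, against 2.87-fold in QDBS (FDR = 6.85e-06 and 2.68e-05 from limma). Dhx32, Dhx57 and Ddx59 had log2 FCs between 0.05 and 0.48, and only that of Dhx32 in QDBS met the FDR. This value missed the FDR with 75th percentile centring and quantile normalization (0.26 and 0.37), without control replicate 1 or 3 (0.45 and 0.40) and with only the groups compared. Ddx3, a gene on chromosome 13 that RefSeq also lists as Ddx3yl, is a relative of Ddx3x, with which it may share probe signal, so its value is uncertain. Its signals were 3.20, 4.17 and 3.74 in control, 3.01, 3.20 and 3.21 in QDBS and 3.15, 2.97 and 3.06 in YDBS. QDBS overlapped with control and all YDBS values lay below it. It was the only helicase gene lower at a FDR under 0.05 (log2 FC -0.57 and -0.65, FDR = 0.0439 and 0.0247 from limma), while 22.9% of all genes were in QDBS and 25.3% in YDBS. In both models Ddx3 missed the FDR with median centring, quantile normalization and cyclic loess (log2 FC -0.40, -0.36 and -0.27 in QDBS, FDR = 0.144, 0.185 and 0.283), with the methods' test and with only the groups compared. It also missed it without control replicate 2 (-0.33 in QDBS and -0.41 in YDBS) or 3 (-0.55 and -0.63). In QDBS, control replicate 1 was the only array without which Ddx3 kept the FDR. In YDBS it was also missed without YDBS replicate 2 or 3. With 75th percentile centring Ddx4 and Ddx25 were lower at the FDR too (-0.48 and -0.48 in QDBS, FDR = 0.0109 and 0.0115). In YDBS the same centring gave Ddx4, Ddx25, Ddx28 and Ddx51 lower at the FDR beside Ddx3. Without control replicate 3, Ddx4 and Ddx25 were lower at the FDR in QDBS (-0.37 and -0.36) and Ddx4 in YDBS (-0.43).

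Between QDBS and YDBS no helicase gene differed at a FDR under 0.05, which 0.011% of all genes met with QDBS higher and 0.446% with QDBS lower. With the fold added, 0% of all genes were called higher and 0.33% lower in QDBS. The FDRs lay between 0.258 and 0.999 by limma, and 5 genes had an unadjusted p under 0.05 with QDBS higher (3.97% of all genes) and 1, Dhx40, with QDBS lower (6.56%). The test named in the methods called 0 of all genes between the models, so its lack of helicase calls is not particular to them. Of the 43 genes 35 had a higher mean in QDBS (54.4% of all genes), with a median log2 FC of 0.16 beside 0.02 for all genes. For 13 of them, or 30.2%, all QDBS arrays lay above all YDBS arrays, as for 9.79% of all genes, and for none below (8.65%). Smallest in p were Ddx18 (QDBS over YDBS log2 FC 0.52, 95% interval 0.14 to 0.91, FDR = 0.258), Ddx21 (0.42, 0.10 to 0.75, FDR = 0.283) and Dhx35 (0.35, 0.07 to 0.63, FDR = 0.304), all by limma. Dhx35 had signals of 4.42, 4.36 and 4.44 in control, 4.61, 4.89 and 4.53 in QDBS and 4.33, 4.21 and 4.44 in YDBS, so that QDBS stood above control and YDBS overlapped with it. Over all 43 genes the outer ends of these intervals were -0.77 and 0.92, and the standard errors of the differences were 0.12 to 0.29.

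Genes that work with these helicases were counted for lists written from textbook knowledge. Called higher were 9.62% of all genes in QDBS and 10.4% in YDBS, and 15.7% and 16.9% of the brightest 60%. The counts of these short lists were not tested against these shares. Of 16 other RNA helicases QDBS had 5 called higher, YDBS 4, with median log2 FCs of 0.77 and 0.67. Among them were Eif4a2, a helicase of translation initiation (log2 FC 1.95 and 1.90), Aqr of the spliceosome (1.41 and 1.28) and Snrnp200, which unwinds U4 from U6 (1.36 and 1.17). Of 8 repression and decapping partners of DDX6, 3 rose in QDBS and 5 in YDBS, with medians of 0.92 and 1.09. Eif4enif1, which brings the cap-binding protein eIF4E into P-bodies, had 1.78 and 1.67, Lsm14a, a P-body protein, 1.69 and 1.84, and Cnot1, the scaffold of the CCR4-NOT deadenylase, 1.47 and 1.35. Of 12 genes of the TREX complex and mRNA export 5 rose in both models, with Sarnp, which binds Ddx39b, at 3.96 and 4.09 and the TREX subunits Thoc2 at 2.42 and 2.36 and Thoc1 at 1.52 and 1.63. Of 14 G-patch genes, several of which encode activators of DEAH helicases, 3 rose in QDBS and 2 in YDBS, such as Gpatch8 (1.97 and 1.74) and Rbm5 (1.90 and 1.95). In the SMN complex Strap was called in QDBS (1.25) and missed the fold in YDBS (0.96, FDR = 0.00817 from limma), and the other 7 genes were not called. Rtraf was the called gene of 3 genes of the DDX1 ligase complex (1.28 and 1.21), and Dgcr8, the RNA-binding partner of Drosha, that of 2 genes of the Microprocessor (1.73 and 1.71). No gene of these lists was called lower, while only 1.36% of all genes were in QDBS and 0.919% in YDBS. At the FDR alone, the export factor Nxt1 (-0.32 and -0.34) and the germ line helicase Tdrd9 (-0.36 and -0.39) were lower in both models, and Helz2 in YDBS (-0.41). Of all genes 22.9% in QDBS and 25.3% in YDBS were lower at the FDR alone.

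Promoters of the helicase genes, called and not called, were searched for motifs as a description. RefSeq sequence of build GRCr8 was matched for 39 of the 43 genes and not for Ddx3, Ddx6, Ddx24 and Ddx52. No motif searched contains another. The 250 bases before 1 listed start of each gene were searched on both strands for 8 motifs. The letters CCGGAAG, the core of sites for ETS factors, stood in 15 of the 39 promoters (38.5%), against 10.8% of 14505 promoters of genes on the array. They were in 6 of 14 promoters of genes called in QDBS and in 9 of 25 of the others. The GC box GGGCGG stood in 59% (45.4% of promoters on the array), the CCAAT box (CCAAT) in 46.2% (35.2%), the E-box CACGTG in 17.9% (6.87%) and the CRE TGACGTCA in 10.3% (2.23%). The NRF1 motif was found in 1 promoter (1.16% on the array), and the TATA box TATAAA (11.3%) and the YY1 motif (0.496%) in none. A motif match is a description of the letters and not of binding. The stretches with the ETS letters are shown for the 6 genes called in QDBS and, for comparison, for 3 that were not, with the motif in capitals and read 5′ to 3′ on the strand of the gene.
Dhx9 (GRCr8 chr13:68189623-68189673, minus strand): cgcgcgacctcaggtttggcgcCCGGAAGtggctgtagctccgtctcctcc
Ddx21 (GRCr8 chr20:31097277-31097327, minus strand): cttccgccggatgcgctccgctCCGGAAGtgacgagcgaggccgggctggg
Dhx36 (GRCr8 chr2:149044192-149044233, minus strand): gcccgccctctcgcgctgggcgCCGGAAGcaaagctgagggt
Ddx1 (GRCr8 chr6:41756241-41756291, minus strand): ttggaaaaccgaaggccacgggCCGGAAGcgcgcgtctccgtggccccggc
Ddx27 (GRCr8 chr3:176163189-176163219, plus strand): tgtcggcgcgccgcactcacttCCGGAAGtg
Dhx8 (GRCr8 chr10:87168017-87168067, plus strand): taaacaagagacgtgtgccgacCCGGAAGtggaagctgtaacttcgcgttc
Ddx47 (GRCr8 chr4:169576982-169577012, plus strand): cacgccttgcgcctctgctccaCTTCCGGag
Ddx50 (GRCr8 chr20:31133653-31133687, minus strand): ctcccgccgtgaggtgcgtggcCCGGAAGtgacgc
Dhx30 (GRCr8 chr8:118975294-118975344, minus strand): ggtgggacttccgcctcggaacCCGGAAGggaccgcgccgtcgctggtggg
In Ddx47 the letters are on the opposite strand and read CTTCCGG. The motif thus occurred at 9 to 105 bases before the listed start used, in genes called and not called in QDBS. That start need not be the outer end of the annotated gene. The stretch of Dhx8 lies inside the annotated gene, and that of Dhx30 in part. Of the genes not called, Ddx47 and Ddx50 met the FDR in QDBS without the fold.

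Markers of blood cells moved as well, and their part in the results for the helicase genes was not tested. Mean signals of 7 T cell genes were 7.12 to 7.71 in control, 8.45 to 8.58 in QDBS and 7.78 to 7.96 in YDBS, with 3 and 1 genes called higher. Those of 4 B cell genes were 6.56 to 7.28, 8.09 to 8.96 and 7.45 to 8.13 (2 and 1 higher), and those of 6 natural killer cell genes 5.91 to 6.22, 7.57 to 7.90 and 7.52 to 7.87 (5 and 5 higher). The 10 neutrophil genes had 7.67 to 7.82, 7.69 to 8.46 and 8.67 to 9.47 (7 higher in YDBS, and 1 lower in QDBS), and the 7 monocyte genes 7.87 to 8.11, 8.42 to 8.74 and 8.62 to 8.82 (1 and 2 higher). The 5 platelet genes had 10.83 to 11.11, 9.21 to 9.98 and 9.77 to 10.71 (4 lower in QDBS), the 6 erythroid genes 7.80 to 8.66, 7.37 to 7.59 and 7.89 to 8.63 (3 lower in QDBS), and the 6 hepatocyte genes 4.97 to 5.32, 3.27 to 3.36 and 3.25 to 3.34 (5 lower in each model). Apart from the hepatocyte list, these means lay above the median signal on every array. Across all clusters the median signal was 4.15 to 4.21 on control and 3.94 to 4.05 on model arrays. Within a list the genes did not always move together. For T cells in YDBS, 5 of the 7 genes lay above 0 and the middle log2 FC was 0.07 (QDBS 0.75). Cd2 stood at 1.45 there, and Cd5 was lower at the FDR (-0.40, limma FDR = 0.0466). Monocyte genes lay above 0 in 4 of 7 cases in each model, with medians of 0.35 and 0.47. Ccr2 reached 2.57 and 3.01, while Cd14, Csf1r and Cd68 were below 0 in both models.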

How the data were processed

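Total RNA of blood from 9 rats was hybridised to 9 arrays, and n counts rats. The deposited values are log2 signals per transcript cluster, which the authors made with RMA (background correction, quantile normalization, median polish) in Affymetrix Expression Console 1.1, per the submitters' processing notes. The labels name a 3' IVT kit for labelling, which is not the kit type of a Gene ST (sense target) array, and its effect on the signals is not known here. Symbols came from GEO's platform annotation, where 18511 of 30347 clusters carry 1 symbol, 575 several and 11261 are unlisted. Of several clusters of a gene the one with the highest mean was used, which gave 18166 genes. One limma fit (version 3.58.1, R 4.3.3) of all 3 groups was used, with Benjamini-Hochberg FDR over all genes. It was tested on simulated data with 200 changed genes. P-values set the differences of group means against the spread between these rats. This spread was pooled over the 3 groups and moderated over all genes. The number of arrays limits the precision.

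Values of every array are given for Ddx1, for the 8 helicase genes with the highest and the 4 with the lowest log2 FC in each model, and for the 3 with the smallest p between the models; the others are given by log2 FC and range. Members and lists were chosen with earlier results of these data known. Same-numbered arrays deviated together no more than others (correlations -0.170 to 0.196 and -0.130 to 0.217), so no sign of pairing by number was seen. With 3 arrays per group this check cannot exclude pairing or a shared batch. For 13 of 43 helicase genes (30.2%, and 41.6% of all genes) 2 or more arrays share a value. Alternatives were other scalings, variance settings, a filter on the dimmest 40% of genes, the mean of clusters, the methods' t-test, a replicate block and leaving out each array. Protein motifs were not analysed here.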

Additional observations from a re-analysis of the deposited data

Results flagged for a closer look

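The second transcript cluster of Ddx21, which entered no comparison except the alternative with the mean of clusters, differed between the groups. Its signals were 6.10, 5.79 and 5.999 in control, 6.89, 7.40 and 7.29 in QDBS and 7.01, 6.90 and 6.84 in YDBS, so that all model arrays lay above all control arrays. The log2 difference was 1.23 in QDBS and 0.95 in YDBS, smaller than those of the cluster used (2.18 and 1.75). On each control array the second cluster was brighter than the cluster used (5.96, 5.42 and 5.75), and on each model array dimmer. Choice by the mean over all arrays thus took the cluster with the larger rise. With the mean of both clusters Ddx21 stayed called in both models. The second cluster was singled out as signal in data outside the main measurement and was not tested on its own.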

How the results depend on the processing

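Under the alternatives run, no called gene changed direction, none of the 43 genes was called lower in a model, and none was called between QDBS and YDBS. Small values that were not called did change sign, such as Ddx54 in QDBS (0.31, and -0.04 with quantile normalization) and Ddx56 in QDBS (0.21, and -0.12). The median log2 FC of the helicase genes in QDBS and YDBS was 0.73 and 0.67 with each array centred on its median, 0.34 and 0.26 with 75th percentile centring, and 0.87 and 0.66 without the dimmest 40% of genes, which leaves 39 of them. The median of all genes moved from -0.15 in QDBS to 0.01, -0.38, -0.08 and 0.00 with median centring, 75th percentile centring, quantile normalization and cyclic loess, and the helicase median lay 0.47 to 0.71 above it in QDBS and 0.39 to 0.63 in YDBS. With these 4 scalings 21, 13, 15 and 15 genes were called higher in QDBS and 18, 13, 12 and 13 in YDBS. The cause of these shifts was not tested. Leaving out 1 array gave 15 to 20 calls and a median of 0.48 to 0.64 in QDBS, 14 to 17 calls and 0.35 to 0.58 in YDBS, and 0 calls and 0.10 to 0.23 between the models. With the replicate block 16 and 15 genes were called, with medians of 0.56 and 0.47, and it changed no call. The methods' t-test kept all 16 and 15 calls. At the FDR alone it left 18 helicase genes higher in each model, against 25 in QDBS and 22 in YDBS by limma. With this test Ddx17, Ddx20, Ddx23 and Ddx50 lost the FDR in both models, and Ddx39b, Ddx47 and Dhx32 lost it in QDBS.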
